A study of Mus musculus with 5 samples.

Results

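The genes of the cytosolic ribosomal proteins were followed in mouse embryonic stem cells after siRNA knockdown of Dhx30 or Tfam. Members were taken by name: every gene whose name begins with Rpl or Rps and a digit, plus Rplp0, Rplp1, Rplp2, Rpsa and Fau where present. Of 138 genes with such a name, 52 with -ps in the name (pseudogenes) and 9 whose names begin with Rps6k (kinases that act on ribosomal protein S6) were left out. The remaining 77 of 12930 genes in the table had a value in all 4 siRNA libraries, so no member was lost to a filter on missing values. By name, 42 belong to the large (60S) subunit and 35 to the small (40S) subunit. Of these, 68 encode the standard ribosomal proteins, 38 of the large and 30 of the small subunit. The other 9 are the paralogs Rpl22l1, Rps27l and Rpl7l1, the processed copies Rpl6l, Rps3a2, Rpl37rt and Rps4l, the retroposed gene Rps23rg1, and Rps19bp1, a protein that binds Rps19 and is not itself part of the ribosome. Of 78 standard names looked up, Rpl17, Rpl24, Rpl29, Rpl32, Rpl35a, Rpl36, Rpl38, Rplp1, Rps15 and Rps3a1 had no value to use here.

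The study, on mitochondrial RNA-binding proteins, compared 2 libraries labelled siDhx30 and 2 labelled siTfam with 1 labelled NC (negative control). All 5 came from OG2 cells, a line that carries a green fluorescent reporter of Oct4, with a strain entry of CBA/CaJxC57BL/6J and 129Sv/Jae. They spent 24 h in N2B27 medium with LIF, PD0325901 and CHIR99021, which holds the naive state. They were then given 50 nM siRNA and kept for 36 h in differentiation medium (bFGF, Activin A), which lets the cells leave that state; the NC cells went through the same change of medium. Dhx30 encodes an RNA helicase of the mitochondrial RNA granules, and Tfam encodes a factor that packages mitochondrial DNA and helps start its transcription. Each value is 1 log2 ratio per gene and siRNA library, read as siRNA over NC; the direction is stated nowhere and was inferred from which genes lacked values. A ratio of 1 on this scale is a 2-fold higher value, and no gene's abundance or read depth is known. The NC library is the denominator of all 4 columns, so an error in it would move all 4 ratios of a gene together. The labels do not say that replicates were separate cultures, so a limma p-value reflects the scatter of these libraries alone, and that scatter may be technical.

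The ratio of Dhx30 was -0.40 and -0.20 in the siDhx30 libraries, against 0.01 and 0.04 in the siTfam libraries. The ratio of Tfam was 0.12 and -0.01 in the siDhx30 libraries, against -0.28 and -0.02 in the siTfam libraries. The library labelled siTfam replicate 2 thus showed almost no loss of its target, and every direction drawn from it rests on its label. Over all 12088 complete genes the median ratio lay between -0.01 and -0.0057 in the 4 libraries, so the ratios of the ribosomal protein genes are read against a centre near 0. The median absolute difference between replicate libraries was 0.26 in siDhx30 and 0.20 in siTfam for the 77 members, and 0.23 and 0.24 for all genes.

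A cytosolic ribosome joins a small subunit, which reads the mRNA, to a large subunit, which makes the peptide bond and lets the new chain out through a tunnel. Its proteins are made in near equal numbers, and many of their mRNAs share a start of C and T letters, the 5′ terminal oligopyrimidine (TOP) tract, through which mTOR and the RNA-binding protein Larp1 set their translation and stability. In embryonic stem cells the demand for ribosomes is high, and their production changes as the cells leave the naive state.

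The shared start is shown for 8 members, chosen because a run of C or T letters lies over the annotated start and wholly within the stretch shown. They are the 5 with the lowest and the 3 with the highest difference between siDhx30 and siTfam among the standard proteins of that kind. Each line gives 15 bases on either side of the RefSeq transcript start on GRCm38.p6, 5′ to 3′ on the gene's strand, with the run of 8 or more C or T letters in capitals.
Rps27: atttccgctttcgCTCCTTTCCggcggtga
Rps10: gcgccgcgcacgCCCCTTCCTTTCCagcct
Rps18: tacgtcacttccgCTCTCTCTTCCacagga
Rpl14: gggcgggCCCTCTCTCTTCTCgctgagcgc
Rps6: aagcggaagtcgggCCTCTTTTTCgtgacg
Rpl15: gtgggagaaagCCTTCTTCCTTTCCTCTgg
Rpl7a: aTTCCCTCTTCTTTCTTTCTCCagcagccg
Rpl35: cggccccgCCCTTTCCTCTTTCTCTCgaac
The windows of Rps27 (chr3:90213634-90213663), Rps10 (chr17:27635230-27635259), Rps18 (chr17:33955651-33955680) and Rps6 (chr4:86857353-86857382) are on the minus strand. That of Rpl14 (chr9:120571502-120571531) is on the plus strand. Rpl15 (chr14:18270972-18271001) and Rpl35 (chr2:39005117-39005146) are on the minus strand, and Rpl7a (chr2:26910792-26910821) is on the plus strand. A run of at least 8 C or T letters lay within 50 bases of the start, on the gene's strand, in 49 of the 59 members with a RefSeq promoter (83.1%), against 39.3% of 27025 genes. The matching run of A or G letters was present in 22.0% of the members and 41.1% of all genes. In the 300 bases around the start, on either strand, CCGGAAG was present in 39.0% of members and 9.93% of all genes, and AAGATGGC in 10.2% and 3.19%. These are matches of letters only. Among the standard proteins with a promoter, the median siDhx30 minus siTfam difference was -0.16 for the 46 with a C or T run and -0.13 for the 7 without.

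Between the knockdowns, most ribosomal protein genes had lower ratios in the siDhx30 libraries than in the siTfam libraries, by a small amount. The mean difference was negative for 73 of the 77 members, with a median of -0.17 log2 units, or 89.1% of the siTfam level, whereas 50.2% of all genes lay lower and their median was -0.0015. Other short genes leaned the same way. Of 131 other protein-coding genes with at most 300 coding bases, 68.7% lay lower, with a median of -0.09. By library, the median of the members was -0.08 and -0.0036 in siDhx30, against 0.07 and 0.22 in siTfam, so both siDhx30 medians lay below both siTfam medians. The siDhx30 libraries had 35 and 38 members above NC, and the siTfam libraries had 45 and 67. In limma, 0 of the 77 members passed an adjusted p under 0.05, as did 0% of the 12088 genes, with 1 member and 337 genes at an unadjusted p under 0.05. The smallest adjusted p among the members was 0.999.

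The libraries numbered 1 had 62 members lower in siDhx30 than in siTfam, with a median of -0.11. Those numbered 2 had 73 lower, with a median of -0.20. Members lower in both pairs of libraries numbered 61, while 27.3% of all genes were. Both siDhx30 libraries lay below both siTfam libraries for 26 members (33.8%), against 14.3% of all genes, and both lay above for 2 members, Rpl19 among them, against 14.7% of all genes. Left out one at a time, the 4 siRNA libraries left between 59 and 72 members lower. The median was -0.11 without siTfam replicate 2, the library with little loss of Tfam, and -0.09 with transcript length and GC content trends removed, where 62 of 72 members were lower.

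**Figure D1:**
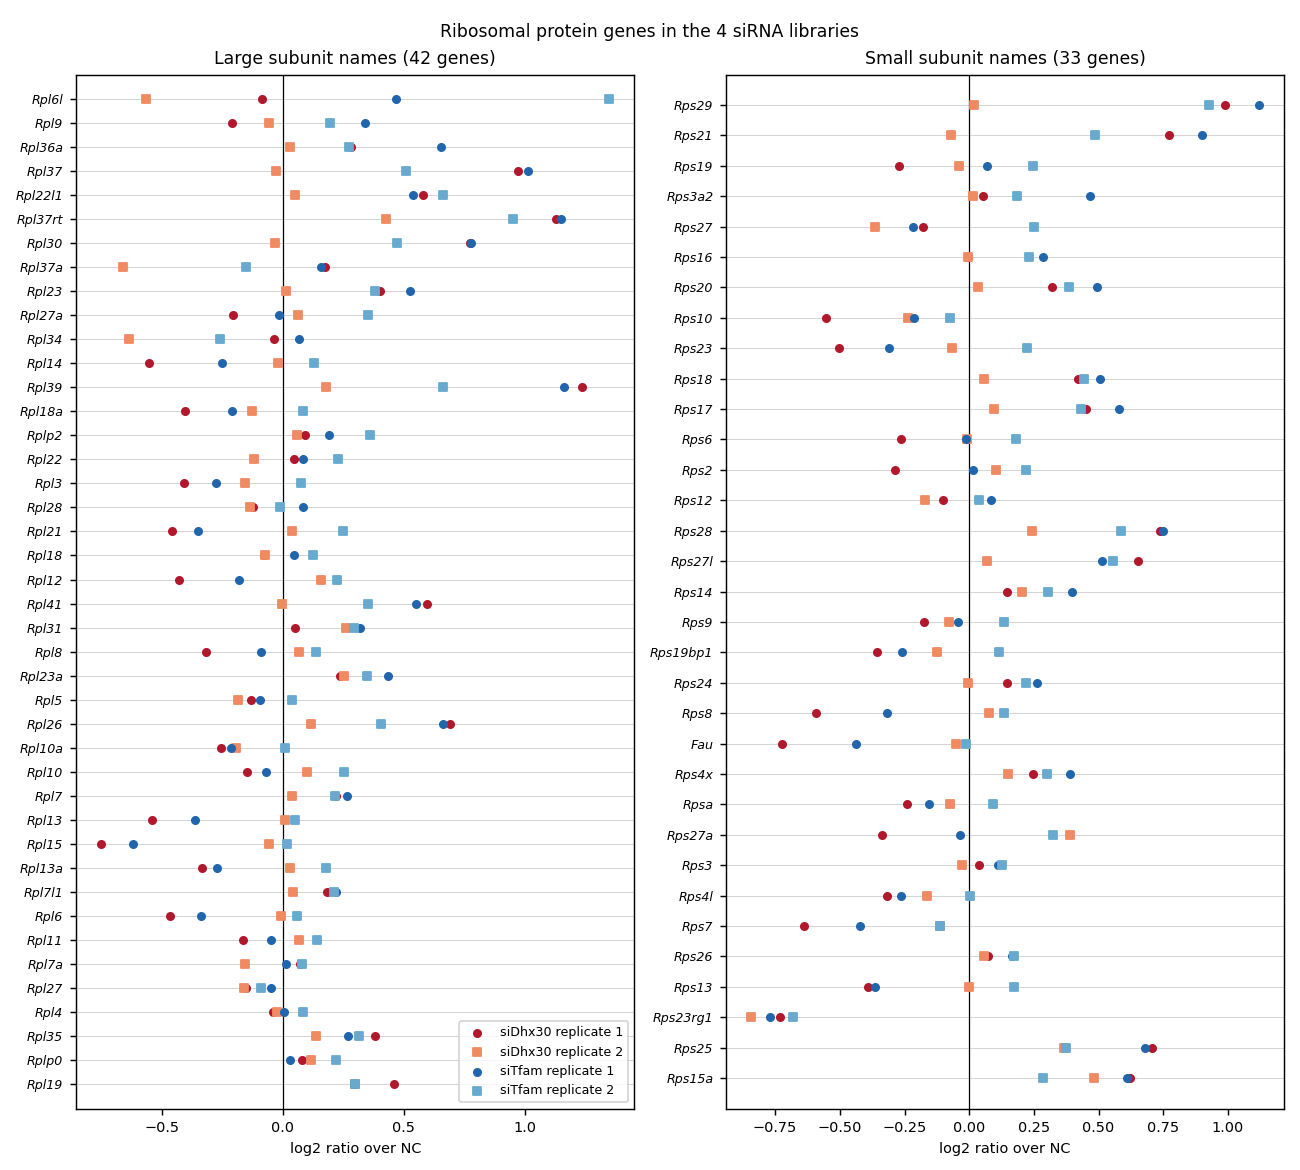
The log2 ratio over NC of 75 of the 77 members in the 2 siDhx30 libraries (red and orange) and the 2 siTfam libraries (blues), large subunit names on the left and small on the right, with the lowest siDhx30 minus siTfam difference at the top. In most lines the red and orange points lie left of the blue point of the same shape, and Rps23rg1 lies left of -0.5 in all 4 libraries.

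**Figure D2:**
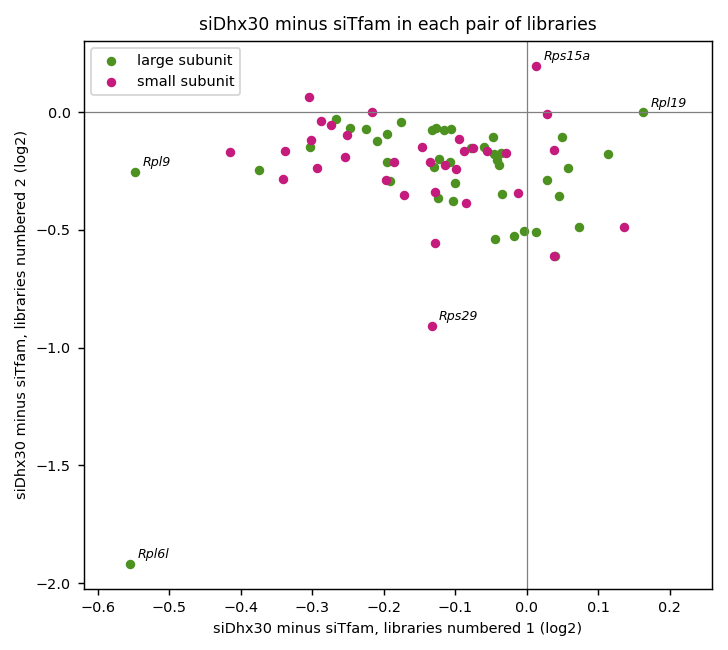
The siDhx30 minus siTfam difference of 75 of the 77 members in the libraries numbered 1 (horizontal, log2) and numbered 2 (vertical, log2), large subunit in green and small in magenta. Of the 75 points, 60 lie in the lower left field, and Rpl6l is the lowest in both directions.

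Large and small subunit genes had similar differences. The median siDhx30 minus siTfam difference was -0.16 for the large subunit, with 41 of 42 genes lower, and -0.18 for the small subunit, with 32 of 35 lower. Both siDhx30 libraries lay below both siTfam libraries for 12 of the 42 and 14 of the 35, against 14.3% of all genes. In the siDhx30 libraries the large subunit median was -0.04 and 0.01, and the small subunit median was -0.18 and -0.0063. In the siTfam libraries it was 0.07 and 0.22 for the large, and 0.07 and 0.22 for the small subunit. The large minus small gap was therefore 0.14 and 0.02 in siDhx30, against 0.0032 and -0.0023 in siTfam. Pooled over both knockdowns, the SD of this gap between replicates was 0.06. A gap between subunits was seen in siDhx30 replicate 1 only, and no p is given for it. With the standard proteins alone the medians were -0.15 for 38 large and -0.18 for 30 small subunit genes. With length and GC trends removed the large subunit median was -0.08 and the small subunit median -0.11.

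The member with the lowest difference was Rpl6l, a processed copy of Rpl6 on chromosome 10 (chr10:111125851-111126721, plus strand, GRCm38). Its ratio was -0.09 and -0.57 in siDhx30, against 0.47 and 1.35 in siTfam, a difference of -1.24 (SE 0.39, limma adjusted p = 0.999). The groups did not overlap, but reads of such a copy may belong to Rpl6, the functional gene. Rpl6 itself had -0.47 and -0.0094 in siDhx30, against -0.34 and 0.06 in siTfam, a difference of -0.10 (SE 0.26).

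Among the standard proteins the lowest differences were those of Rps29, Rpl9, Rps21, Rps19 and Rpl36a. Rps29, a small zinc-binding protein of the 40S head, had ratios of 0.99 and 0.02 in siDhx30, against 1.12 and 0.93 in siTfam, a difference of -0.52 (SE 0.38). Its 2 siDhx30 libraries lay further apart than the 2 groups, and the groups overlapped. Rpl9, which sits near the base of the large subunit's stalk, had -0.21 and -0.06 in siDhx30, against 0.34 and 0.19 in siTfam, a difference of -0.40 (SE 0.16, 95% interval -0.85 to 0.05). Rps19, the gene most often mutated in the human Diamond-Blackfan anaemia, had -0.27 and -0.04 in siDhx30, against 0.07 and 0.25 in siTfam, a difference of -0.31 (SE 0.18). For Rpl9 and Rps19 both siDhx30 values were below NC and both siTfam values above it. Rps21, a neighbour of Rpsa on the small subunit, had 0.77 and -0.07 in siDhx30, against 0.90 and 0.49 in siTfam. Rpl36a, at the exit site for spent tRNA, had 0.28 and 0.03 in siDhx30, against 0.65 and 0.27 in siTfam. In both, siDhx30 replicate 1 lay within the siTfam values, so the groups overlapped. Their differences were -0.34 (SE 0.36) and -0.31 (SE 0.22), and the limma adjusted p of all 5 was 0.999.

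At the other end were Rps15a, Rpl19 and Rps25. Rps15a, of the small subunit's body, had 0.62 and 0.48 in siDhx30, against 0.61 and 0.29 in siTfam, and Rpl19, which forms a bridge between the subunits, had 0.46 and 0.30, against 0.29 and 0.30. Rps25, a small subunit protein that many viral internal entry sites need, had 0.71 and 0.36 in siDhx30, against 0.68 and 0.37 in siTfam, a difference of 0.0097 (SE 0.22). For these 3 genes the knockdowns differed by less than 0.11 log2 units, and all 4 libraries lay above NC.

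The P stalk of the large subunit recruits the GTPases of elongation. Its backbone Rplp0 had 0.08 and 0.11 in siDhx30, against 0.03 and 0.22 in siTfam, a difference of -0.03 (SE 0.16). Its partner Rplp2 had 0.09 and 0.06 in siDhx30, against 0.19 and 0.36 in siTfam, a difference of -0.20 (SE 0.16), with no overlap between the groups. Rpl12, at the stalk's foot, had -0.43 and 0.16 in siDhx30, against -0.18 and 0.23 in siTfam. Replicate 1 lay below NC and replicate 2 above it in both knockdowns of Rpl12. Rpl5 and Rpl11, which carry the 5S rRNA and can bind Mdm2, had differences of -0.13 (SE 0.15) and -0.10 (SE 0.18). Rpl5 had -0.13 and -0.19 in siDhx30, against -0.09 and 0.04 in siTfam. Rpl11 had -0.16 and 0.07 in siDhx30, against -0.05 and 0.14 in siTfam, so it lay on both sides of NC in each knockdown.

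All 7 measured genes of a chosen list of 8 for proteins around the exit tunnel lay above NC in both siTfam libraries. So did 54.5% of all members and 32% of all genes. In both siDhx30 libraries 6 of the 7 did, against 33.8% of all members and 32.1% of all genes. Against siTfam, 6 of the 7 were lower in siDhx30, with a median difference of -0.13. In the libraries numbered 1 the median was 0.03 with 3 lower, and in those numbered 2 it was -0.11 with 6 lower. Rpl39, a short protein of the tunnel wall, had 1.24 and 0.18 in siDhx30, against 1.16 and 0.66 in siTfam. The spread between the 2 siDhx30 libraries exceeded the difference of -0.21 (SE 0.44). Rpl26 had 0.69 and 0.12 in siDhx30, against 0.66 and 0.40 in siTfam. Rpl23a, a docking site for factors at the tunnel mouth, had 0.24 and 0.25 in siDhx30, against 0.43 and 0.35 in siTfam, with no overlap. Rpl31 had 0.05 and 0.26 in siDhx30, against 0.32 and 0.29 in siTfam, also without overlap, whereas Rpl35, at 0.38 and 0.14 against 0.27 and 0.31, overlapped. Rpl4, whose loop lines the tunnel, stayed close to NC, at -0.04 and -0.02 in siDhx30, against 0.0032 and 0.08 in siTfam.

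In a chosen group of 7 small subunit genes, here called the decoding group, each gene had a lower mean in siDhx30 than in siTfam. All 7 were lower in the libraries numbered 1, and 6 of the 7 in those numbered 2. Some of the group's proteins lie at the mRNA channel or the initiation factor contacts, and the group does not hold all such proteins. Of all 35 small subunit genes, 32 were lower as well. The 7 genes had a median difference of -0.20, and their library medians were -0.29 and -0.03 in siDhx30, against -0.01 and 0.13 in siTfam. Rps10, at the mRNA entry side, had -0.55 and -0.24 in siDhx30, against -0.21 and -0.07 in siTfam, a difference of -0.25 (SE 0.19). It was below NC in all 4 libraries and did not overlap between the knockdowns. Rps6, the target of the S6 kinases, had -0.27 and -0.0089 in siDhx30, against -0.01 and 0.18 in siTfam. Rps2, at the entry of the mRNA channel, had -0.29 and 0.10 in siDhx30, against 0.02 and 0.22 in siTfam. In both, the higher siDhx30 library reached into the siTfam values. Rps12 had -0.10 and -0.17 in siDhx30, against 0.09 and 0.04 in siTfam, a difference of -0.20 (SE 0.15), and the knockdowns lay on opposite sides of NC. Rps3, also at the entry of the mRNA channel, had 0.04 and -0.03 in siDhx30, against 0.11 and 0.13 in siTfam. The genes whose product is fused to ubiquitin or a ubiquitin-like protein had the widest gaps between replicates of these 7. Rps27a had -0.34 and 0.39 in siDhx30, against -0.03 and 0.33 in siTfam, and Fau had -0.72 and -0.05, against -0.44 and -0.01. No member of this group passed limma (adjusted p = 0.999 for each).

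All 8 measured genes of a chosen list of 9 mutated in Diamond-Blackfan anaemia in people were lower in siDhx30 in both pairs of libraries. Their median difference was -0.15. Lower in both pairs were also 61 of the 77 members and 27.3% of all genes. The list is a selection, and other members mutated in this disease may lie outside it. Among the 8, Rps19 had the lowest difference and Rpl11 the highest. Both siDhx30 libraries lay below both siTfam libraries for 5 of the 8, against 26 (33.8%) of the 77 members and 14.3% of all genes. The 4 members on the X chromosome, Rps4x, Rpl10, Rpl36a and Rpl39, were lower too, with a median of -0.18. All 4 had a siTfam mean above NC.

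By their SD over genes, the ratios of the paralogs and copies spread more widely than those of the standard proteins in each library. The SD was 0.59 and 0.40 in siDhx30 and 0.58 and 0.62 in siTfam for the paralogs and copies. For the standard proteins it was 0.48 and 0.22, and 0.45 and 0.50. All 8 paralogs and copies had a lower mean in siDhx30 than in siTfam, with a median of -0.22, as did 73 of the 77 members. In the libraries numbered 1 their median was -0.03 with 5 lower, and in those numbered 2 it was -0.33 with 8 lower. Rpl37rt, a transcribed copy of Rpl37, had 1.13 and 0.43 in siDhx30, against 1.15 and 0.95 in siTfam. Its siTfam mean of 1.05 was the highest of all members against NC (SE 0.36, limma adjusted p = 0.808). Rps23rg1, a retroposed copy of Rps23, was low in all 4 libraries, at -0.73 and -0.84 in siDhx30 and -0.77 and -0.68 in siTfam. Against NC its means were -0.79 (limma adjusted p = 0.727) in siDhx30 and -0.73 (limma adjusted p = 0.676) in siTfam. Its parent Rps23 had -0.50 and -0.06 in siDhx30, against -0.31 and 0.22 in siTfam.
Rps27l, a p53-responsive paralog of Rps27, had 0.65 and 0.07 in siDhx30, against 0.51 and 0.56 in siTfam. Rps27 itself had -0.18 and -0.36 in siDhx30, against -0.22 and 0.25 in siTfam. Rpl22l1 had 0.58 and 0.05 in siDhx30, against 0.54 and 0.66 in siTfam, while Rpl22 had 0.05 and -0.12, against 0.08 and 0.23. Rps27l and Rpl22l1 thus had higher ratios over NC than their standard counterparts in every library, which the third paralog, Rpl7l1, did not share. Rpl7l1, which acts in the nucleolus, had 0.18 and 0.04 in siDhx30, against 0.22 and 0.21 in siTfam. Its counterpart Rpl7 had 0.22 and 0.04 in siDhx30, against 0.27 and 0.21 in siTfam. Rpl7l1 lay below Rpl7 in the libraries numbered 1 and close to it in those numbered 2. Rps3a2 had 0.05 and 0.01 in siDhx30, against 0.47 and 0.18 in siTfam, and Rps4l had -0.32 and -0.16, against -0.26 and 0.0048. Reads of copies and parents can be exchanged in counting, so these ratios are uncertain. The binding protein Rps19bp1 had -0.36 and -0.13 in siDhx30, against -0.26 and 0.12 in siTfam.

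Against NC the siDhx30 libraries showed no common direction. The mean was lower for 44 members and higher for 33, with a median of -0.05, while the median of all genes was -0.01. Both libraries lay below NC for 30 members (39.0%), against 34.9% of all genes, and above NC for 26 (33.8%), against 32.1%. These shares are close to the background. Low means were -0.79 (SE 0.19) for Rps23rg1 and -0.41 (SE 0.45) for Rpl15. Rpl15 had -0.75 and -0.06 in siDhx30 and -0.62 and 0.02 in siTfam, so only the libraries numbered 1 were low. The highest means were 0.78 (SE 0.36) for Rpl37rt, 0.71 (SE 0.54) for Rpl39, 0.55 (SE 0.23) for Rps15a and 0.54 (SE 0.27) for Rps25. In limma 0 members and 0% of genes passed, with 1 member and 609 genes at an unadjusted p under 0.05. The median was -0.0036 without siDhx30 replicate 1, -0.08 without replicate 2 and -0.03 with length and GC trends removed.

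Against NC the siTfam libraries had more members above than below. The mean was higher for 53 and lower for 24, with a median of 0.12, or 109% of NC, while the median of all genes was -0.02. Both libraries lay above NC for 42 members (54.5%), against 32% of all genes, and below NC for 7 (9.09%), against 34.4%. The highest means were those of Rpl37rt, Rps29 (1.02, SE 0.47), Rpl39 (0.91, SE 0.54) and Rpl6l (0.91, SE 0.47). Low means were those of Rps23rg1, Rpl15 (-0.30, SE 0.45) and Rps7 (-0.27, SE 0.32). Rps7 had -0.64 and -0.11 in siDhx30 and -0.42 and -0.11 in siTfam, again lowest in the libraries numbered 1. In limma 0 members and 0% of genes passed, with 2 members and 739 genes at an unadjusted p under 0.05. The median was 0.22 without siTfam replicate 1 and 0.07 without replicate 2. With length and GC trends removed, 40 of the 72 protein-coding members were higher and 32 lower, with a median of 0.09, against 50 higher and 22 lower among the same 72 before.

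The ratios of the members also varied with the length of the protein they encode. Over the 72 members with an annotated coding length (75 to 1257 bases without the stop codon, median 454.5), Spearman's rho of the ratio over NC with coding length was -0.54 and -0.08 in siDhx30, and -0.56 and -0.51 in siTfam. Shorter genes thus had higher ratios in 3 of the 4 libraries. Over 9185 other protein-coding genes rho was 0.09 and 0.01 in siDhx30, and -0.0017 and -0.19 in siTfam. For the siDhx30 minus siTfam difference, rho with coding length was 0.44 over the 72 members and 0.23 over the 9185 other genes. These are descriptions across genes that share libraries and the NC denominator. The 9 members of at most 300 coding bases, a split chosen after the values were seen, had medians of 0.74 and -0.0054 in siDhx30, against 0.75 and 0.51 in siTfam. The 14 members of at least 700 bases had -0.09 and -0.0091 in siDhx30, against 0.0074 and 0.13 in siTfam. The 131 other protein-coding genes of at most 300 bases had 0.12 and -0.01 in siDhx30, against 0.14 and 0.17 in siTfam. Of these 131 genes, 90 had a lower mean in siDhx30 than in siTfam, with a median difference of -0.09. All 9 short members had a lower mean in siDhx30 than in siTfam, with a median difference of -0.25, but only 4 of the 9 were lower in the libraries numbered 1, while all 9 were lower in those numbered 2. Among the 14 long members 12 and 14 were lower. Rpl37, a short zinc-binding protein of the large subunit, had 0.97 and -0.03 in siDhx30, against 1.01 and 0.51 in siTfam. Rps28 had 0.74 and 0.24 in siDhx30, against 0.75 and 0.59 in siTfam, and Rpl41, the shortest, had 0.60 and -0.0054, against 0.55 and 0.35. Rpl37a, with 0.17 and -0.66 in siDhx30, against 0.16 and -0.15 in siTfam, and Rps27 were the short members that did not share the high ratios of replicate 1. The part of transcript length, RNA quality or library preparation in these ratios was not tested.

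**Figure D3:**
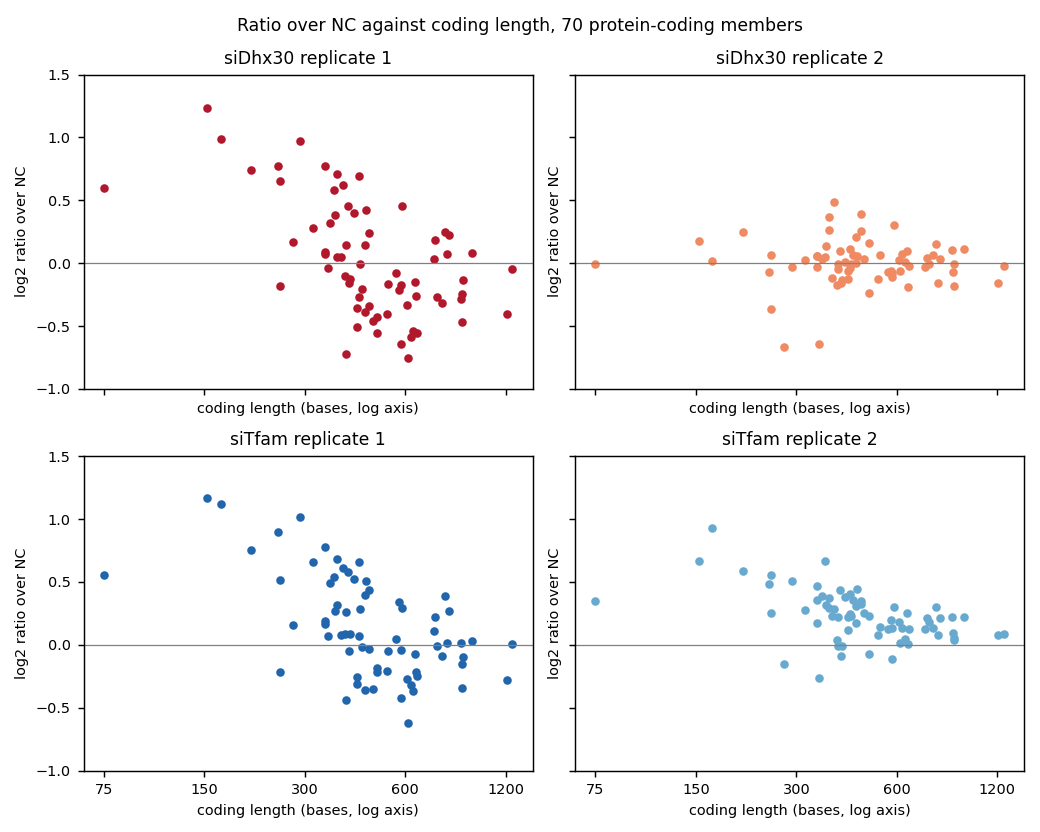
The log2 ratio over NC against the coding length (bases, log axis) for 70 of the 72 protein-coding members, 1 panel a library, siDhx30 above and siTfam below. The shortest genes tend to lie highest in every panel except siDhx30 replicate 2, whose points show little slope.

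Members share further features that the name rule did not use. They lie on 19 chromosomes, 4 of them on the X. Inside 27 members lie 53 annotated snoRNA genes. The members that hold a snoRNA gene had a median siDhx30 minus siTfam difference of -0.16, with 26 of 27 lower, and the 50 that hold none had -0.17, with 47 lower. Another gene on the opposite strand overlaps 22 members, and strand use in counting is not stated, so reads of such pairs cannot be told apart.

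Genes around the ribosome had smaller differences. None of their members passed limma in siDhx30 against siTfam (adjusted p of 0.999 or above for each named gene). Of 16 other genes with TOP mRNAs, which encode elongation and initiation factors and their partners, 14 were lower in siDhx30 than in siTfam, with a median of -0.10. Eif4b, an initiation factor, was highest, with -0.11 and 0.13 in siDhx30, against -0.17 and -0.11 in siTfam. Of 8 elongation, termination and recycling factors 6 were lower (median -0.10), from -0.20 for Hbs1l to 0.14 for Abce1, the recycling ATPase. Of 9 RNA genes that host snoRNAs 8 were lower (median -0.13), from -0.35 for Snhg8 to 0.06 for Gas5. In the libraries numbered 1 their median was 0.05 with 4 lower, and in those numbered 2 it was -0.30 with 8 lower.

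By the mean over libraries, the machinery that builds ribosomes lay closer to 0. RNA polymerase I and its factors, which make the rRNA, had 9 of 14 lower (median -0.02). Polr1a, the largest subunit, was highest at 0.53 (SE 0.21), with 0.14 and 0.28 in siDhx30, against -0.11 and -0.53 in siTfam, and Taf1b was lowest at -0.20. The snoRNA-protein particles had 6 of 8 lower (median -0.03), from -0.17 for Nhp2 to 0.06 for Nolc1, with 1 lower in the libraries numbered 1 and 7 in those numbered 2. Assembly factors of the large subunit had 12 of 22 lower (median -0.0060), from -0.14 for Eif6 to 0.26 for Nvl. Those of the small subunit had 15 of 22 lower (median -0.02), from -0.16 for Rrp9 to 0.35 for Bms1. The 2 pairs of libraries went opposite ways in both lists. In those numbered 1 both medians were 0.05, with 4 large and 6 small subunit factors lower. In those numbered 2 both medians were -0.05, with 14 of 22 lower in each list. Dedicated chaperones of ribosomal proteins had 4 of 5 lower (median -0.06), from -0.20 for Tsr2, which guards Rps26, to 0.24 for Bccip. Regulators of ribosomal protein mRNAs had 5 of 11 lower (median 0.01), from -0.28 for Mycn to 0.34 for Mtor. Mtor had 0.14 and 0.14 in siDhx30, against 0.22 and -0.62 in siTfam, so its value turned on siTfam replicate 2. Ribosome quality control genes had 2 of 7 lower (median 0.01), from -0.20 for Hbs1l to 1.18 for Map3k20, the kinase that senses stalled ribosomes.
Map3k20 had 0.44 and 2.31 in siDhx30, against 0.23 and 0.16 in siTfam, a difference with an SE of 0.69. The 66 mitochondrial ribosomal protein genes, the counterparts inside the organelle, had 52 lower and a median of -0.08. In the libraries numbered 1 their median was -0.02 with 34 lower, and in those numbered 2 it was -0.15 with 51 lower. The pseudogene names left out by the rule had 30 of 34 lower and a median of -0.45, and their reads may come from the genes they copy.

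**Figure D4:**
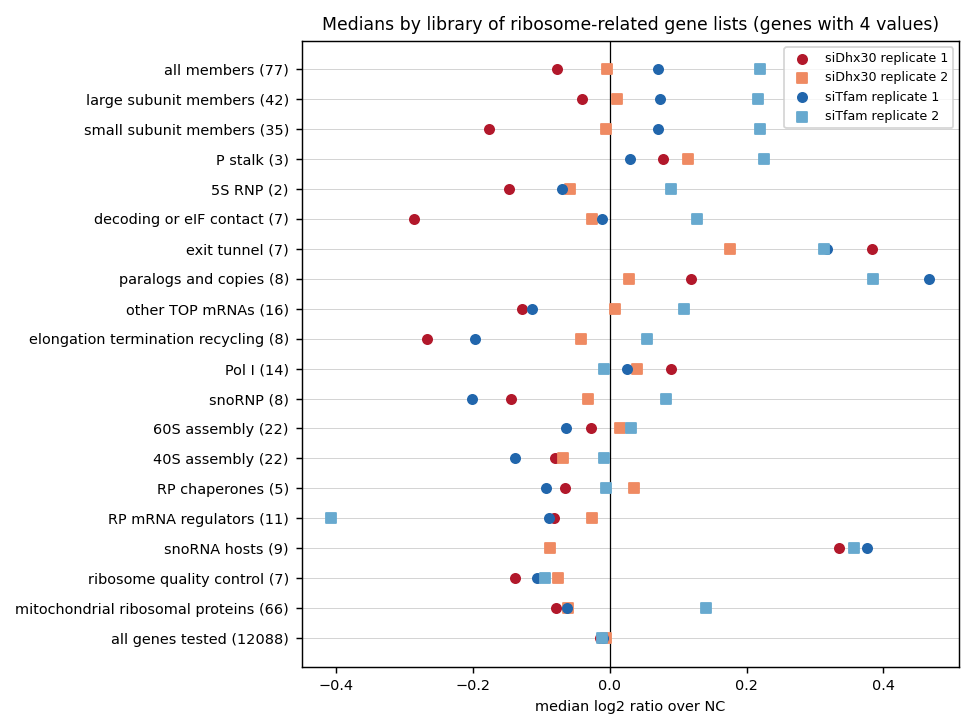
The median log2 ratio over NC of each list in the 4 libraries, siDhx30 in red and orange and siTfam in blues, with the number of genes in brackets. For all members and for both subunits the siDhx30 medians lie left of the siTfam medians, while the medians of assembly factor lists lie within 0.14 of 0.

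Markers of cell state were looked at in the same libraries, and none passed limma in siDhx30 against siTfam (adjusted p = 0.999). The 4 primitive endoderm markers with values (Dab2, Lama1, Col4a1 and Col4a2, of 10 listed) had higher means in siDhx30 than in siTfam, with library medians of -0.49 and -0.23 in siDhx30, against -0.75 and -1.13 in siTfam. For 2 of the 4 both siDhx30 libraries lay above both siTfam libraries, against 14.7% of all genes. The naive markers with values (Esrrb, Tfcp2l1 and Tbx3, of 9 listed) had lower means in siDhx30, with a median difference of -0.39, but their library medians were -0.24 and 0.02 in siDhx30, against -0.56 and 0.02 in siTfam. Of these, Tbx3 alone had both siDhx30 libraries below both siTfam libraries, and Tfcp2l1 had -0.24 and 0.03 in siDhx30, against -1.14 and 1.71 in siTfam. Pou5f1, Sox2 and Nanog were not analysed here. The 3 formative markers with values, of 5 listed, had medians of 0.23 and 0.16 in siDhx30, against 0.08 and 0.03 in siTfam. Dnmt3b and Lef1 were higher in siDhx30, whereas Otx2 was lower, at 0.37 and 0.33 against 0.63 and 0.43. Fibroblast or feeder markers had medians of 0.01 and -0.34 in siDhx30, against -0.44 and -0.05 in siTfam, with 2 lower and 2 higher. The part of all these markers in the ratios of the ribosomal protein genes was not tested. In such bulk RNA fewer cells of a type and less RNA per cell cannot be told apart.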

How the data were processed

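The 5 RNA-seq libraries come from OG2 cells. The authors deposited log2 values per gene, 1 column for each siRNA library, per the file headers; HISAT2, featureCounts, bcl2fastq, DESeq2 and GRCm38 are named in the submitters' processing notes, without settings. No counts or totals were used here, so depth and precision per library are unknown. All 1574 deposited values of the 842 genes with a missing value were negative. If a minimum count acted, such genes were low in NC, so the values were read as NC over siRNA and turned to siRNA over NC; no header states the direction.

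The 12088 complete genes were fitted with limma 3.58.1 (R 4.3.3, robust variance moderation) with 1 coefficient per group. NC entered as a column of zeros, assumed to vary like the siRNA libraries (2 residual and 2.02 prior degrees of freedom). P-values were adjusted over all genes by Benjamini-Hochberg, with a threshold of 0.05, in 3 comparisons. The fit was tested on simulated data with planted differences larger than the median differences of the members. The power for differences as small as those medians was not tested. List medians have no test. Gene positions and coding lengths (principal transcript) came from GENCODE M21 (76 of 77 members matched), sequences from RefSeq (GRCm38.p6, 59 matched).

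Members and lists were chosen with earlier results of these data known. Named genes were Dhx30, Tfam, the 6 lowest and 6 highest members between the knockdowns, the 4 lowest and 4 highest against NC, all members of the stalk, 5S, decoding, tunnel and paralog groups, and the extremes of each other list. Other names (parents of copies, markers, length examples, sequences shown) were chosen after their values were seen. Some genes of these groups, 2 of them members, are not reported here; counts and medians still include them, and plots of single members leave them out. Alternatives left out each siRNA library, kept incomplete genes, removed length and GC trends, centred on all genes, left out mitochondrially encoded genes, kept only protein-coding genes or standard proteins, used robust=FALSE, or blocked on the replicate number. Tables and plots were made with matplotlib 3.10.9, pandas 2.3.3, numpy 2.4.6 and Python 3.11.15.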

Additional observations from a re-analysis of the deposited data

Results flagged for a closer look

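For 7 of the 77 members (9.09%), against 299 of all 12088 genes (2.47%), both siDhx30 libraries lay below NC and both siTfam libraries above it. Of the members named by the rule these were Rpl4 (siDhx30 minus siTfam -0.076), Rpl6l (-1.24), Rpl9 (-0.40), Rps12 (-0.20) and Rps19 (-0.31); Rpl18 and Rps16 were the others. Each difference was tested with limma and none passed (adjusted p = 0.999). The library medians of all members, and those of the small subunit genes, also lay below NC in siDhx30 and above it in siTfam. In siDhx30 replicate 2 they were only -0.0036 and -0.0063, beside -0.0057 for all genes. In that library the medians thus lay at the centre of all genes. The median siDhx30 minus siTfam differences, -0.17 for all members and -0.18 for the small subunit, were not tested.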

How the results depend on the processing

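No member passed limma under any setting run. Of 1849 values of the named genes under these settings, 19 moved by more than the spread between replicates, 17 of them with length and GC trends removed. The sign differed from the reported one in 75, of which 19 and 12 came from leaving out siDhx30 replicate 1 or 2, 9 and 22 from leaving out siTfam replicate 1 or 2, and 13 from removing the trends. With the trends removed the large subunit median of siDhx30 against siTfam was -0.078, and the large minus small gap of siDhx30 against NC was -0.025; the cause was not tested. Leaving out 1 library, that gap ranged from 0.017 to 0.14. In siTfam against NC the median of all members ranged from 0.070 to 0.22, and that of the large subunit from 0.074 to 0.22. The large subunit median of siDhx30 against NC was 0.01 without siDhx30 replicate 1, against -0.05 with both. Replicate numbers are shared by siDhx30 and siTfam, but with 2 pairs they do not show pairing. Spearman's rho of the replicate 1 minus 2 differences of the knockdowns was 0.73 over the members and 0.30 over all genes. The fit with the replicate number as a block called 0 genes, with 566 at an unadjusted p under 0.05, and left the member median at -0.17. No block could be fitted against NC, which has 1 library. Depth is unknown, so which ratios rest on few reads cannot be told.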
